A study of Mus musculus with 6 samples.

Results

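The CCN genes and the genes of the YAP transcription module were compared between Slc39a13-KO and wild-type chondrocytes. The set holds 10 genes taken by name: the secreted CCN proteins Ccn1 to Ccn5, the YAP targets Ankrd1 and Amotl2, the coactivators Yap1 and Wwtr1 (TAZ), and the DNA-binding partner Tead1. All probe sets annotated to these genes were used, which gave 20 of the 45101 probe sets on the array. Some carry older names elsewhere, such as Cyr61 for Ccn1, Ctgf for Ccn2, Nov for Ccn3, Wisp1 for Ccn4 and Wisp2 for Ccn5. All 20 passed the filter on low values, so no gene of the set was left out of the tests. The array annotation covers 18193 genes with a probe set of their own, of which 12715 were tested with 23294 probe sets.

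RNA came from primary chondrocytes and was read on 6 arrays, 3 labelled Slc39a13-KO and 3 labelled wild type. The KO mice carry a Neo cassette in place of several Slc39a13 exons on both alleles in every tissue, so the cells had lacked the zinc transporter throughout development. Wild-type mice carry the intact gene. The cells were released by collagenase from cartilaginous rib cages of newborn mice, strained and cultured in medium with serum, with no sort described. The arrays were used in the study to explore which pathways change when Slc39a13 is lost.

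CCN proteins are secreted, cysteine-rich matricellular proteins that bind integrins, heparan sulfate proteoglycans and growth factors and so tie the matrix to cell signaling. Ccn1 and Ccn2 are the textbook targets of YAP and TAZ, which enter the nucleus when cells spread or the matrix is stiff, bind TEAD factors and switch on transcription. The Hippo kinases hold YAP and TAZ in the cytoplasm. In cartilage, CCN2 is a growth factor for chondrocytes, and mice without it have malformed ribs and growth plates.

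TEAD factors recognise the core GGAATG, which reads CATTCC on the other strand. The promoter sequences show where this core lies before the start site of the YAP targets whose signals are described below. The 250 bases before the start are given 5′ to 3′ on the gene's own strand, from RefSeq on the GRCm38.p6 build, with each core in capitals.
Ccn1, chr3:145649986-145650235, minus strand: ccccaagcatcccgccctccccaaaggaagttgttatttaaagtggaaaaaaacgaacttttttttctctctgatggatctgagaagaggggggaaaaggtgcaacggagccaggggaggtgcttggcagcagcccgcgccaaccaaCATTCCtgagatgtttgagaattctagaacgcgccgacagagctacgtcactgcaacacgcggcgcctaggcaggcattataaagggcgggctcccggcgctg
Ankrd1, chr19:36119845-36120094, minus strand: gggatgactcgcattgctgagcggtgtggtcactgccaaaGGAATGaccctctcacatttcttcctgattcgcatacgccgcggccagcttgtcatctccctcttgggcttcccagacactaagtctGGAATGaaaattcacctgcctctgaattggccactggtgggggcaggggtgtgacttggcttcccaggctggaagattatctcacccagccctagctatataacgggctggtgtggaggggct
Amotl2, chr9:102717554-102717803, plus strand: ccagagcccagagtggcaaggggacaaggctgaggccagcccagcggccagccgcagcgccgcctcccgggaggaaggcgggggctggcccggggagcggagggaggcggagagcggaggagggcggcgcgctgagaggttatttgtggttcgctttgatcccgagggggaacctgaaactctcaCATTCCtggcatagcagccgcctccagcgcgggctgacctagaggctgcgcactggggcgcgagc
In Ccn1 the core stood at position -103 from the start site, on the reverse strand. Ankrd1 held the core at positions -210 and -123. Amotl2 held it at position -65, on the reverse strand. Promoter windows from 250 bases before to 50 after the start site were matched for 5 of the 10 genes, Ccn1, Ankrd1, Amotl2, Yap1 and Wwtr1, and all 5 held the core on either strand, against 14.7% of 32851 windows of the same length. The AP-1 motif TGANTCA and the CArG box of serum response factor, both searched on both strands, were in 0 of these 5 genes' windows, against 7.81% and 1.63% of all windows. A match is a stretch of letters and no measure of binding.

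The targeted gene checked the labels. Slc39a13 had signals of 100, 196 and 165 on the KO arrays, against 901, 1081 and 991 on the wild-type arrays (log2 fold change -2.67, SE 0.22, limma adjusted p = 0.000535). The sources used here do not place its probe set inside or outside the deletion. Median signals were 82.0 to 108 on KO arrays and 80.7 to 88.4 on wild-type arrays. KO replicate 1 had the highest of these medians and stood apart from the others, with correlations of 0.921 to 0.925, against 0.944 to 0.960 among the other 5 arrays. Xist, read here after its values were seen, was high on 1 array of each group, with 107, 6445 and 79.2 on KO arrays against 79.0, 101 and 5194 on wild-type arrays. Nothing in the labels says whether the 3 replicates came from separate mice or cultures, so the p-values rest on the spread between arrays, part of which may be technical. Since Xist differed within each group, the 3 arrays of a group did not all hold the same RNA.

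Across all tested probe sets, 802 (3.44%) were higher and 785 (3.37%) lower in KO cells by limma with Benjamini-Hochberg adjustment at 0.05. With every array centred on its median the numbers were 131 higher and 259 lower. Taking each gene by its brightest probe set, 505 genes (3.97%) were higher and 498 (3.92%) lower, and in 3930 genes (30.9%) the KO and wild-type arrays did not overlap in either direction. These shares are the background for the counts that follow. At an unadjusted limma p no share over all genes was counted. The members and lists were chosen with earlier results of these data known. Their counts beside these shares are a description and no independent support. All changes are KO minus wild type on the log2(signal + 7.96) scale, a fold is the change converted from that scale, and signals are in the arbitrary linear units of the array.

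Among the 10 genes, Ccn3 and Ccn5 rose in KO cells, each about 2.9-fold, and 8 genes did not pass the test. By limma 0 genes fell, with 1 lower at an unadjusted p under 0.05 and 0 by the methods' t-test after adjustment. The median log2 fold change of the 10 genes was 0.01, the same as the 0.01 over all genes. KO and wild-type arrays did not overlap in 3 of the 10 genes, Ccn3, Ccn5 and Ankrd1, all higher in KO cells. This count was near the share over all genes, 30.9% in either direction. Over the 20 probe sets, 3 were higher, 2 lower and 15 did not pass. The 2 lower ones both belong to Ccn1, whose brightest probe sets did not follow. Without wild type replicate 2 the higher genes numbered 1, since Ccn3 moved to an adjusted p of 0.0508. In the methods' t-test with adjustment, and in limma without its variance trend, 0 genes of the set passed.

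**Figure D1:**
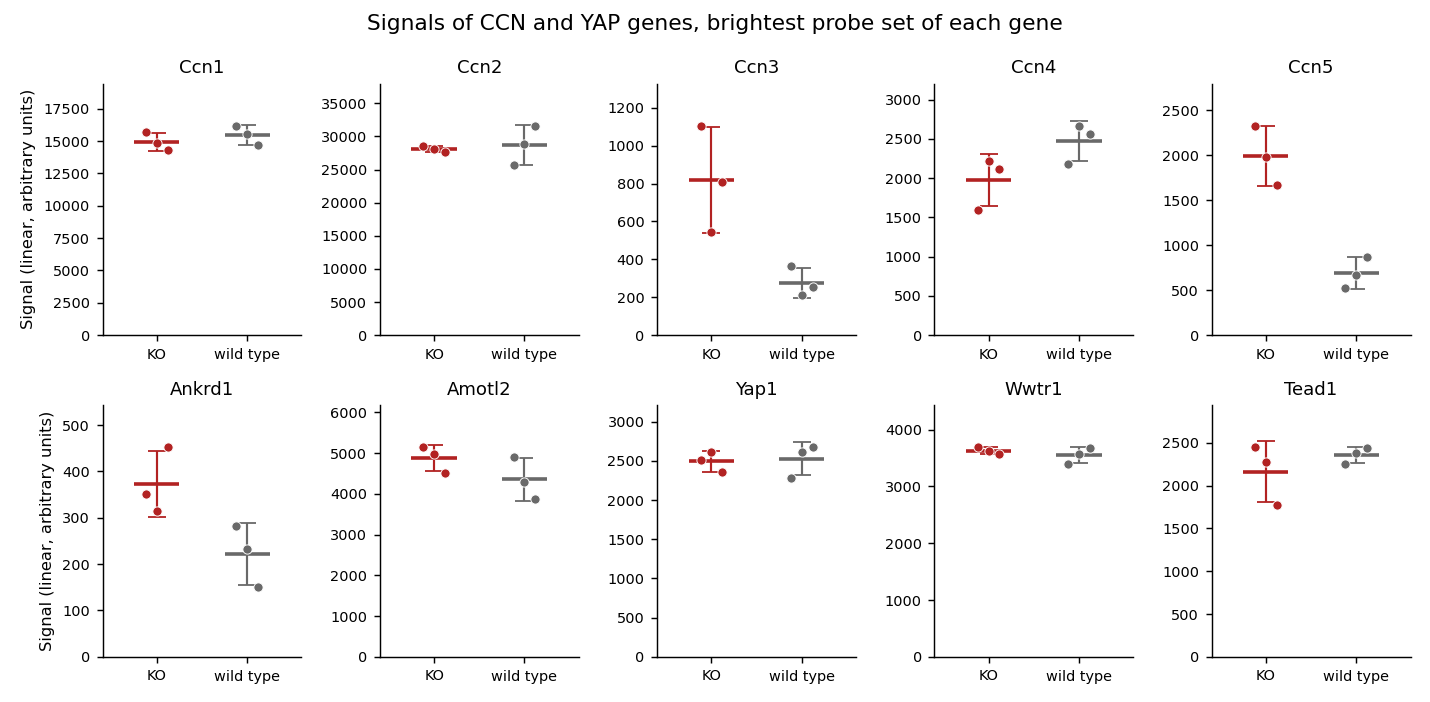
Signal (linear, arbitrary units, axes from 0) of the brightest probe set of each of the 10 genes, with KO arrays left and wild-type arrays right. Points are single arrays, wide bars the mean of 3 arrays and whiskers 1 SD. Ccn3, Ccn5 and Ankrd1 show KO points above all wild-type points, and Ccn1, Ccn2, Yap1 and Wwtr1 show groups that overlap.

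Ccn5, the CCN protein that lacks the C-terminal cystine-knot module of the others, gave the change with the lowest p in the set. Its probe set read 2330, 1982 and 1669 on KO arrays, against 522, 669 and 872 on wild-type arrays. All KO arrays lay above all wild-type arrays. The means were 1994 ± 331 in KO cells and 688 ± 176 in wild-type cells (SD, n = 3 each), a log2 fold change of 1.54 (SE 0.18, 95% interval 1.14 to 1.95, limma adjusted p = 0.00199) or 2.91-fold. The call held with each array left out in turn, at adjusted p-values of 0.00237 to 0.0143. It was lost in limma without the trend (adjusted p = 0.0598) and in the methods' t-test after adjustment (0.101).

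Ccn3, a CCN protein known to counter the action of CCN2 on chondrocytes in culture, was higher in KO cells by a similar factor. Its brightest probe set, 1426852_x_at, read 1106, 545 and 809 on KO arrays, against 363, 210 and 254 on wild-type arrays. The groups did not overlap, although the KO arrays themselves spread over about 2-fold. The means were 820 ± 281 in KO cells and 276 ± 78.5 in wild-type cells, a log2 fold change of 1.52 (SE 0.26, 95% interval 0.94 to 2.10, adjusted p = 0.00956) or 2.87-fold. The other probe set, 1426851_a_at, read 884, 451 and 773 on KO arrays and 264, 163 and 171 on wild-type arrays, a log2 fold change of 1.75 (SE 0.26, adjusted p = 0.00582) or 3.37-fold. Both were designed from the same transcript sequence and are not independent. Both are also of the kind that may bind more than 1 transcript, so Ccn3 gives no value when such probe sets are left out. The brightest lost its call without wild type replicate 2 (1.35, adjusted p = 0.0508), in limma without the trend (0.0903) and in the methods' t-test after adjustment (0.166).

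Ccn2, the connective tissue growth factor, was bright in both groups and showed no difference that passed. It read 28486, 28095 and 27674 on KO arrays, against 25622, 28863 and 31651 on wild-type arrays. The KO values lay inside the wild-type range. The means were 28085 ± 406 in KO cells and 28712 ± 3017 in wild-type cells, and the log2 fold change was -0.03 (95% interval -0.23 to 0.18, adjusted p = 0.896).

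The contrast within the family was also taken inside each array. The log2 difference of Ccn5 and Ccn2 was 1.57 higher in KO cells than in wild-type cells, and that of Ccn3 and Ccn2 was 1.55 higher, each without overlap of the 3 KO and 3 wild-type arrays (two-sided exact permutation p = 0.1, the smallest that 3 against 3 arrays allow, 0.125 after adjustment over 5 such differences). Since Ccn2 itself changed little (-0.03), these differences largely restate the changes of Ccn5 and Ccn3 and are no separate check. Ccn5 and Ccn3 moved by nearly the same amount, with a change in their difference of 0.02 (exact permutation p = 1). The spread of that difference was wide, with an SD of 0.46 in KO cells and 0.68 in wild-type cells.

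Ccn1, an immediate-early matricellular protein and the partner of Ccn2 as a YAP readout, gave an answer that depended on the probe set. The brightest, 1416039_x_at, read 15681, 14874 and 14308 on KO arrays, against 16205, 15512 and 14689 on wild-type arrays. The groups overlapped, and the log2 fold change was -0.05 (95% interval -0.22 to 0.13, adjusted p = 0.758). The next, 1438133_a_at, read 9695, 9526 and 8740 on KO arrays and 10237, 9625 and 10458 on wild-type arrays, also with overlap (-0.12, 95% interval -0.29 to 0.06, adjusted p = 0.410).

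The dimmer Ccn1 probe sets fell in KO cells. The probe set 1442340_x_at read 663, 795 and 757 on KO arrays, against 1132, 1177 and 1279 on wild-type arrays, with means of 739 ± 67.9 in KO cells and 1196 ± 75.4 in wild-type cells. Its log2 fold change was -0.69 (SE 0.11, 95% interval -0.93 to -0.46, adjusted p = 0.00624). The probe set 1457823_at read 721, 844 and 817 on KO arrays, against 1120, 1073 and 1145 on wild-type arrays, a log2 fold change of -0.49 (SE 0.10, adjusted p = 0.0198). In both, every KO array was below every wild-type array. They were designed from the same expressed sequence, which differs from the sequences behind the brighter pair, so they count as 1 line of measurement. The first kept its call with each array left out in turn (adjusted p = 0.00774 to 0.0404). The second lost it without wild type replicate 1, 2 or 3 (0.0863, 0.0799 and 0.0911).

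Inside each array, the mean log2 value of the dimmer pair minus that of the brighter pair was -3.93 ± 0.18 in KO cells and -3.43 ± 0.08 in wild-type cells, a shift of -0.51 without overlap (exact permutation p = 0.1, adjusted 0.125). The mean over all 4 probe sets put Ccn1 at -0.34 (log2, adjusted p = 0.0185 over genes), so the call for the gene turned on which probe sets stood for it. Which transcript forms the dimmer pair detects is not given in the sources used here. Both brighter probe sets, 1416039_x_at and 1438133_a_at, and the dimmer 1442340_x_at are of the kind that may bind more than 1 transcript. The dimmer 1457823_at, which fell, is not of that kind, and Ccn1 counted as lower when such probe sets were left out.

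**Figure D2:**
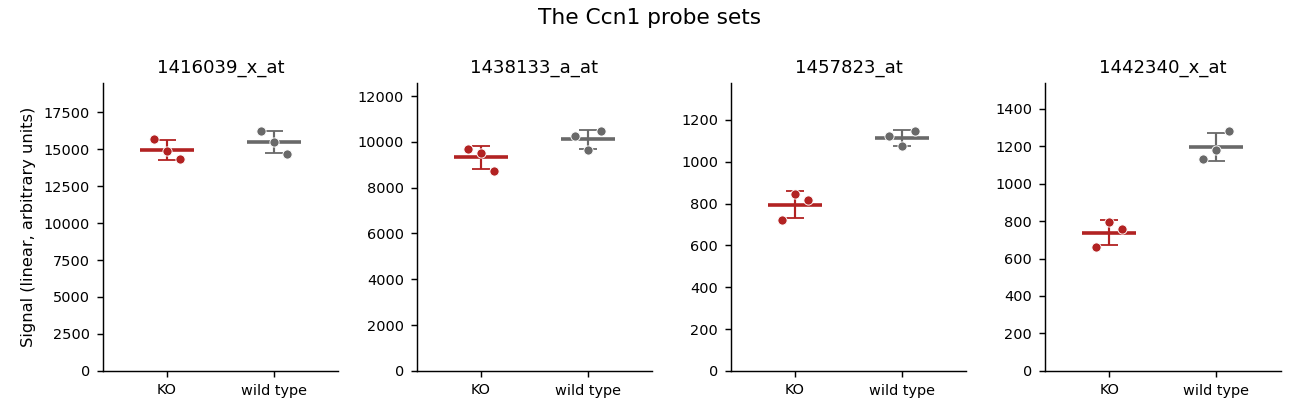
Signal (linear, arbitrary units, axes from 0) of the 4 Ccn1 probe sets in order of brightness, with KO arrays left and wild-type arrays right, as single arrays with means and 1 SD. The groups overlap in 1416039_x_at and 1438133_a_at and are apart in 1457823_at and 1442340_x_at, where KO means are 794 and 739, against 1113 and 1196 in wild-type cells.

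Ccn4, a Wnt-induced CCN protein of the bone lineage, read 1599, 2220 and 2116 on KO arrays, against 2182, 2671 and 2557 on wild-type arrays, with its brightest probe set 1448593_at. KO replicate 2 lay above the lowest wild-type array. The log2 fold change was -0.33 (95% interval -0.62 to -0.04) with an unadjusted p of 0.0318, and it did not pass after adjustment (adjusted p = 0.173). The second probe set, 1448594_at, read 1669, 2313 and 2004 on KO arrays and 1913, 2190 and 2391 on wild-type arrays (-0.12, adjusted p = 0.613).

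Ankrd1, a stress-induced ankyrin-repeat protein of muscle and a YAP target, was dim, and its groups did not overlap on 1 of 2 probe sets. The brighter, 1420991_at, read 351, 314 and 452 on KO arrays, against 283, 232 and 151 on wild-type arrays. The means were 372 ± 71.5 in KO cells and 222 ± 66.8 in wild-type cells, a log2 fold change of 0.75 (95% interval 0.22 to 1.28) that did not pass (adjusted p = 0.0916, 0.0898 to 0.252 with each array left out). The second, 1420992_at, read 246, 196 and 317 on KO arrays and 279, 195 and 169 on wild-type arrays, with overlap (0.23, 95% interval -0.30 to 0.77, adjusted p = 0.609). Both come from 1 cDNA. Inside each array, the brighter exceeded the dimmer by 0.55 ± 0.09 in KO cells and by 0.03 ± 0.20 in wild-type cells (exact permutation p = 0.1, adjusted 0.125).

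Amotl2, an angiomotin-like protein that binds YAP at cell junctions and is itself induced by it, read 5144, 4982 and 4522 on KO arrays, against 4916, 4283 and 3874 on wild-type arrays. The groups overlapped. The log2 fold change of 0.17 did not pass (95% interval -0.05 to 0.39, adjusted p = 0.354).

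The mRNAs of the coactivators differed little between groups. Yap1 read 2516, 2608 and 2353 on KO arrays, against 2287, 2618 and 2673 on wild-type arrays with its brightest probe set (-0.02, 95% interval -0.22 to 0.18, adjusted p = 0.933), and the dimmer one gave 0.13 (adjusted p = 0.534). Wwtr1, which encodes TAZ, read 3689, 3630 and 3570 on KO arrays, against 3397, 3566 and 3685 on wild-type arrays (0.03, 95% interval -0.13 to 0.20, adjusted p = 0.830, and -0.06 with each array centred on its median). In both genes the KO values lay within or next to the wild-type range. The other probe sets of Wwtr1 gave 0.08 (adjusted p = 0.626) and -0.08 (adjusted p = 0.662). An array reads mRNA only, so the location and phosphorylation of either protein were not measured.

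Tead1, the DNA-binding partner, read 2447, 2274 and 1768 on KO arrays, against 2252, 2382 and 2435 on wild-type arrays with its brightest probe set. The groups overlapped, and KO replicate 3 was the lowest of the 6 arrays. The log2 fold change was -0.14 (95% interval -0.40 to 0.13, adjusted p = 0.539), and 0.00 without that array. The dim probe set 1423434_at read 77.3, 111 and 112 on KO arrays, against 143, 130 and 164 on wild-type arrays, with no overlap but without passing (-0.52, 95% interval -1.10 to 0.06, adjusted p = 0.272).

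**Figure D3:**
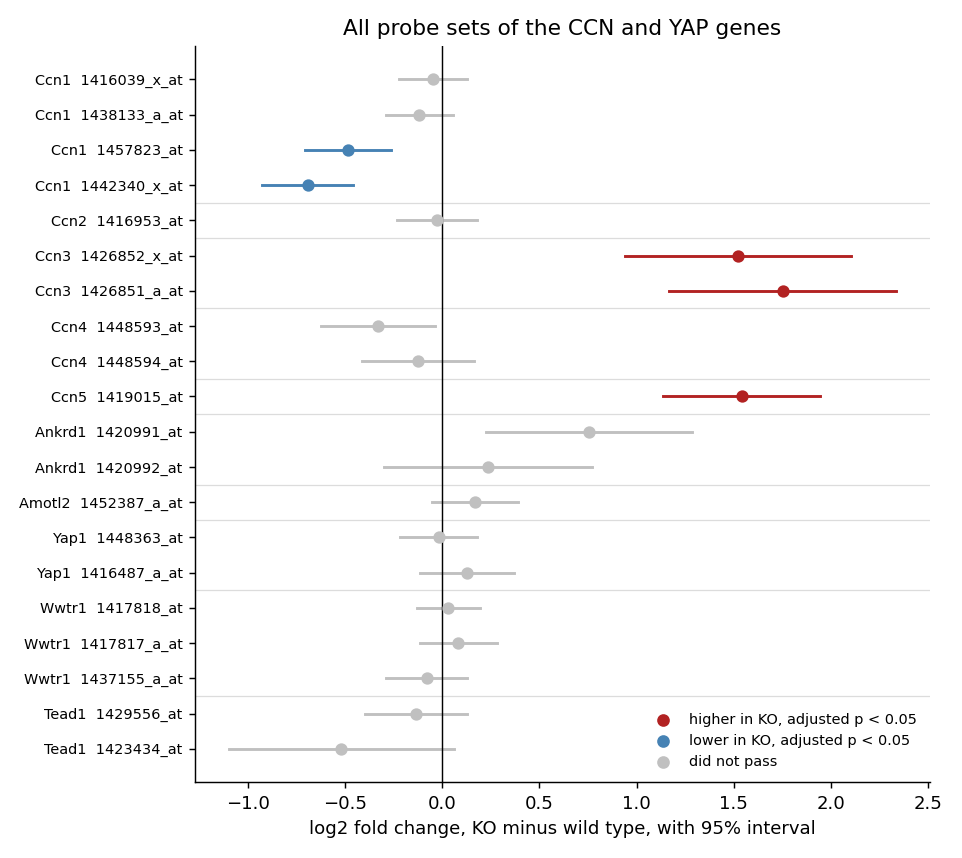
Log2 fold change, KO minus wild type, of the 20 probe sets of the 10 genes, ordered by gene and then by brightness, with 95% intervals from limma. The 3 probe sets of Ccn3 and Ccn5 lie at 1.52, 1.75 and 1.54, the dimmer Ccn1 pair at -0.69 and -0.49, and the 15 others did not pass.

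Genes whose pattern over the 6 arrays was most like that of Ccn1, Ccn2 and Ankrd1 are given as a description. Med16, Nob1 and Tlnrd1 followed Ccn1 with Pearson r of 0.987, 0.979 and 0.974. Gpr153, Parp1 and Kpna6 followed Ccn2 (r = 0.978, 0.971 and 0.958). Asb1, Rad54l and Dnajc5b followed Ankrd1 (r = 0.996, 0.989 and 0.983). Each value was the highest among all other genes over only 6 arrays, which share the group difference, and no gene of the 9 passed the test between groups.

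A list of 18 further YAP and TAZ targets, chosen with earlier results of these data known, was read beside them. Of its 17 tested genes, 10 had log2 fold changes below 0 and 7 above, and 3 fell and 0 rose in KO cells by limma, beside backgrounds of 3.92% and 3.97%. At an unadjusted p under 0.05, limma had 9 lower and 3 higher, with no share over all genes counted at that threshold. The methods' t-test after adjustment had 0 lower and 0 higher. The median log2 fold change was -0.29, against 0.01 over all genes. Groups did not overlap in 10 of the 17 genes, 8 of them lower and 2 higher, beside 30.9% of all genes. Over all 40 tested probe sets of these genes, 6 were lower and 1 higher. Besides those of F3, Axl and Lats2, the lower ones belong to Tgfb2 (-0.54 and -0.50, adjusted p = 0.0403 and 0.0493) and Crim1 (-0.63, adjusted p = 0.0492). The brightest probe sets of Tgfb2 and Crim1 did not pass (-0.29 and -0.32, adjusted p = 0.169 and 0.123), and both genes were named after their values were seen. The higher one belongs to Ccdc80, a secreted matrix protein named here after its values were seen, and read 5086, 5471 and 4895 on KO arrays, against 3461, 3771 and 4004 on wild-type arrays (0.46, adjusted p = 0.0121), while its brightest probe set had 0.27 and did not pass (adjusted p = 0.148).

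F3, the tissue factor that starts coagulation, read 793, 1048 and 1025 on KO arrays, against 1910, 1650 and 1462 on wild-type arrays. The groups were apart, with a log2 fold change of -0.81 (SE 0.13, adjusted p = 0.00870). Axl, a receptor tyrosine kinase for Gas6, read 1584, 2145 and 2012 on KO arrays and 3047, 3297 and 2573 on wild-type arrays (-0.64, SE 0.13, adjusted p = 0.0198). Lats2, a Hippo kinase induced by YAP as feedback, read 1713, 2177 and 2224 on KO arrays and 2857, 2800 and 2557 on wild-type arrays with its brightest probe set (-0.43, SE 0.11, adjusted p = 0.0454), while 4 further probe sets gave values that did not pass (-0.39, -0.35, -0.01 and 0.59). The brightest Lats2 probe set, 1439441_x_at, is of the kind that may bind more than 1 transcript and drops out when such probe sets are left out. Among the targets, leaving out wild type replicate 1 or replicate 2 left 1 gene lower, leaving out KO replicate 3 gave 5, and with KO replicate 1 left out 2 genes were higher. With each array centred on its median it was 1. F3 passed in 17 of 19 alternative settings, Axl in 14 of 19, with its call lost without wild type replicate 1 or 2, and Lats2 in 7 of 18, with its call lost without any single array other than KO replicate 3.

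Of 30 Hippo pathway components, also chosen with earlier results known, 29 were tested. In KO cells 5 fell and 0 rose by limma, beside backgrounds of 3.92% and 3.97%. At an unadjusted p under 0.05 limma had 10 lower and 0 higher, again with no share over all genes counted. The methods' t-test after adjustment had 1 lower and 0 higher. The median was -0.14, against 0.01 over all genes. Of the 29, 13 genes had groups apart, 12 lower and 1 higher, beside 30.9% of all genes. Frmd6, a FERM-domain protein upstream of the kinases, read 1076, 1149 and 993 on KO arrays, against 1845, 2250 and 2268 on wild-type arrays (-0.97, SE 0.11, adjusted p = 0.00143). Every KO array lay below every wild-type array. Vgll3, a transcriptional cofactor that binds TEAD factors, read 3156, 4043 and 4155 on KO arrays, against 5586, 5433 and 5337 on wild-type arrays (-0.54, SE 0.11, adjusted p = 0.0176), and its other probe sets also fell (-0.66, adjusted p = 0.00803, and -0.78, adjusted p = 0.00274).

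Limd1, a LIM protein that binds the LATS kinases, changed by -0.68 on the log2 scale (adjusted p = 0.0294), with a second probe set at -0.04 (adjusted p = 0.915). Amot, the founding angiomotin, had -0.45 (adjusted p = 0.0450), and its dimmer probe sets did not pass (-0.10 and -0.31, adjusted p = 0.866 and 0.582). Sav1, the scaffold of the upstream kinases, had -0.37 (adjusted p = 0.0339) and was added to the named genes after its value was seen. Its dimmer probe set gave -0.15 with overlap and did not pass (adjusted p = 0.382). The number lower was 1, 2 and 1 with wild type replicate 1, 2 or 3 left out, and 3 with KO replicate 1 or 2 left out. With each array centred on its median it was 1. Frmd6 passed in 17 of 19 alternative settings, Vgll3 in 13, Limd1 in 11, Sav1 in 9 and Amot in 7. The call for Amot was lost with each array left out in turn (adjusted p = 0.0553 to 0.176), those for Vgll3, Limd1 and Sav1 without any of the wild-type arrays, those for Limd1 and Sav1 also without KO replicate 1, and that for Sav1 without KO replicate 2.

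**Figure D4:**
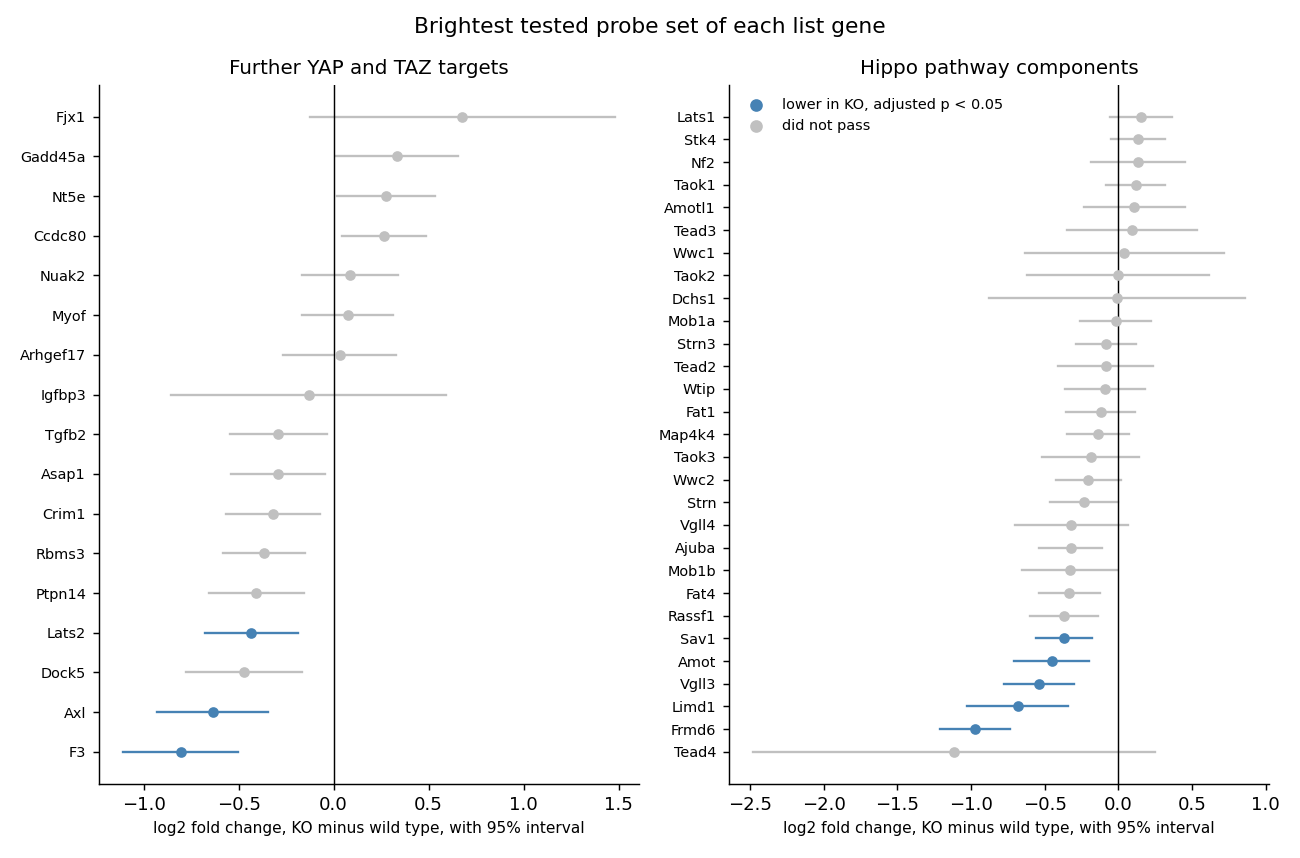
Log2 fold change, KO minus wild type, with 95% intervals for the brightest tested probe set of 17 further YAP and TAZ targets and 29 Hippo components, ordered by size. The targets F3, Axl and Lats2 and the components Frmd6, Limd1, Vgll3, Amot and Sav1 passed as lower in KO cells, and the other genes did not pass.

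Receptors and a second mechanical program were read beside these. Of 9 CCN receptors, 8 were tested, and Lrp1, an endocytic receptor that binds CCN2, rose (0.63, SE 0.11, adjusted p = 0.0114), with signals of 1692, 1843 and 1710 on KO arrays, against 955, 1245 and 1207 on wild-type arrays. By limma 0 receptors fell by their brightest probe set, and 0 were lower at an unadjusted p under 0.05. A dimmer probe set of Itga6, named after its values were seen, was lower without overlap (-0.45, adjusted p = 0.0360). The brightest of Itga6 gave -0.12 (adjusted p = 0.545). The 17 targets of serum response factor, which responds to actin assembly, had 4 lower and 0 higher, beside backgrounds of 3.92% and 3.97%. At an unadjusted p under 0.05 limma had 5 lower and 2 higher, with no share over all genes counted. Vcl, the focal adhesion protein vinculin, read 3630, 4573 and 4129 on KO arrays, against 6752, 7062 and 6931 on wild-type arrays (-0.76, SE 0.09, adjusted p = 0.00227). Zyx, the focal adhesion protein zyxin, had -0.60 (adjusted p = 0.00417), while a dim second probe set gave 0.29 (adjusted p = 0.698). Cnn2 and Tgfb1i1, which bind actin or sit at focal adhesions, had -0.45 (adjusted p = 0.0468) and -0.37 (adjusted p = 0.0423). The medians were 0.17 for the receptors and -0.22 for the serum response factor targets. Of 19 alternative settings, Vcl passed in 17, Zyx and Lrp1 in 16, Tgfb1i1 in 10 and Cnn2 in 9. The calls for Cnn2 and Tgfb1i1 were lost with median centring (adjusted p = 0.120 and 0.236) and without any wild-type array, that for Cnn2 also without KO replicate 2 or 3 and that for Tgfb1i1 without KO replicate 1 or 2, and Lrp1 was lost with median centring (0.194).

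Among markers of other cells, the mesothelial list moved with the groups, and the other lists were mixed or had no call. In bulk RNA, fewer cells of a type and less RNA per cell cannot be told apart. Of 12 mesothelial markers, 10 were tested and 9 fell in KO cells, with a summed signal of 750 to 1296 on KO arrays, against 4933 to 8133 on wild-type arrays. Upk3b, a mesothelial membrane protein, changed by -3.09 on the log2 scale (adjusted p = 0.00108), and Gpm6a had -2.65 (adjusted p = 0.00126). Msln had -3.09 (adjusted p = 0.00738). Krt19 had -3.60 (adjusted p = 0.0187), a size that depends on the pseudocount because its KO mean lay under the filter. On KO arrays Krt19 read 155, 14.4 and 9.37, and its change was -4.64 without KO replicate 1 and -3.00 without KO replicate 3. Its call was lost without KO replicate 2 or any wild-type array (adjusted p up to 0.0821). None of the 12 markers read 0 on any array.

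Fibroblast markers changed in both directions. Of 10 markers, 5 rose, with Col1a1 (0.69), Lum (0.64), Col1a2 (0.59) and Postn (0.55) as the largest changes, all of them matrix proteins. The 2 that fell were the surface proteins Thy1 (-0.49, adjusted p = 0.0213) and Pdgfra (-0.51, adjusted p = 0.0359), named after their values were seen. The summed signal of the list was 74111 to 95053 on KO arrays and 52817 to 64397 on wild-type arrays. With each array centred on its median the calls of all 6 named genes were lost (adjusted p = 0.147, 0.0836, 0.128 and 0.207 for the 4 that rose, 0.143 for Thy1 and 0.125 for Pdgfra). Lum passed in 16 of 19 alternative settings, Postn in 13, Thy1 in 12, Pdgfra in 11, Col1a1 in 9 and Col1a2 in 10 of 18.

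All 9 chondrocyte markers passed the filter on low values, so none of the markers of the labelled cell type was absent. Of these, 4 rose and 0 fell by limma (0 at an unadjusted p under 0.05), led by the cartilage proteoglycan Acan (0.91, adjusted p = 0.00667) and Comp (0.76, adjusted p = 0.00630), with Col9a1 at 0.53 and Col11a1 at 0.47. Changes were above 0 in 8 of the 9 and below 0 in 1, with a median of 0.47, against 0.01 over all genes. Groups did not overlap in 6 of the 9, all higher in KO cells, beside 30.9% of all genes. Acan and Comp each passed in 17 of 19 alternative settings, Col11a1 in 12 and Col9a1 in 10. The calls for Col9a1 and Col11a1 were lost with median centring (adjusted p = 0.147 and 0.197) and without any wild-type array, and that for Col9a1 also with no filter (0.0607) and without KO replicate 2. Matn1, a cartilage matrix protein named after its values were seen, lay below 0 without passing, with 550, 444 and 331 on KO arrays and 487, 698 and 554 on wild-type arrays (-0.40, adjusted p = 0.262). The summed signal of the 9 markers was 123973 to 170937 on KO arrays and 86879 to 103588 on wild-type arrays. Of 11 skeletal muscle markers, 6 were tested, with Tnnt3 at 1.17 (adjusted p = 0.00221) and Acta1 at -0.72 (adjusted p = 0.0276), and sums of 2249 to 2714 on KO arrays and 2140 to 2241 on wild-type arrays. Tnnt3 passed in 16 of 18 alternative settings and Acta1 in 11 of 18, lost with median centring and without any wild-type array.

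Of 7 endothelial markers 1 was tested, Kdr (0.26, adjusted p = 0.749). Esam, an endothelial adhesion molecule under the filter and so without a test, read 38.5, 5.02 and 7.08 on KO arrays, against 106, 78.0 and 148 on wild-type arrays, with no overlap. Of 7 macrophage markers 5 were tested and 0 passed by limma, with 2 higher at an unadjusted p under 0.05, and C1qb and Lyz2 gave 1.54 and 1.05 (adjusted p = 0.112 and 0.118). Of the 5, 3 had changes above 0 and 2 below, and Cd68 read 67.9, 87.5 and 88.9 on KO arrays, against 130, 118 and 118 on wild-type arrays, without overlap and without passing (-0.55, adjusted p = 0.267). Esam and Cd68 were named after their values were seen. The part of these cell types in the values of Ccn1, Ccn3, Ccn5 and the YAP and Hippo lists was not tested.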

How the data were processed

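Total RNA of newborn rib chondrocytes, from 3 Slc39a13-KO and 3 wild-type samples, was read on 1 Affymetrix Mouse Genome array per sample. Groups were taken from the sample titles. The authors labeled total RNA as biotinylated cRNA with a one-cycle kit. The deposited intensities are linear signals, 1 per probe set and array, and the submitters' processing notes name MAS5 while the study's methods name gcRMA. All arrays have the same trimmed mean (500.003) and unequal quantiles, which gcRMA would have made equal. An array gives no read depth, and the number of arrays limits the precision.

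The array annotation gave 34958 of 45101 probe sets 1 gene symbol, 932 several and 9211 none. Only those with 1 symbol that were no controls were tested. Values were taken as log2(signal + 7.96), the pseudocount being the 10th percentile, and only probe sets whose mean reached the 40th percentile (5.80) were kept. KO was compared with wild type in limma 3.58.1 under R 4.3.3 (lmFit and trended eBayes, no covariates), with Benjamini-Hochberg adjustment over 23294 probe sets at a threshold of 0.05. A gene was counted by its brightest tested probe set. Differences inside arrays were tested by exact permutation over the arrays, two-sided. They use the same values as the tests between groups and are no separate check.

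The members and lists were chosen with earlier results of these data known. Named are all 10 genes with every probe set, from each other list the genes that passed with the greatest changes, at most 4 (where none did, the 2 of lowest p), Slc39a13, and the 3 genes most correlated with Ccn1, Ccn2 and Ankrd1. Others are marked as such. Alternatives covered the filter, pseudocount, scaling, choice of probe set, the methods' t-test, limma with no variance trend, a replicate block and each array left out.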

Additional observations from a re-analysis of the deposited data

How the results depend on the processing

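Ccn3 and Ccn5 kept their direction in every alternative run, with log2 fold changes of 1.28 to 1.78 for Ccn3 (passing in 15 of 18) and 1.36 to 1.73 for Ccn5 (passing in 17 of 19). The higher genes of the set, 2 in the main setting, numbered 1 when probe sets that may bind several transcripts were left out, 0 in limma without its trend and 0 in the adjusted t-test, and 1 to 2 with each array left out. The lower ones, 0 in the main setting, numbered 1 with the mean of each gene's probe sets and 1 without probe sets that may bind several transcripts. That gene was Ccn1 each time. Of the further YAP and TAZ targets, 3 were lower in the main setting. There were 5 with the filter at the 60th percentile, 5 with the pseudocount at the 25th, 1 with median centring, 5 with adjustment over genes, 0 without the trend, 0 in the adjusted t-test, 6 in the unadjusted t-test, and 1 to 5 with each array left out. The higher ones, 0 in the main setting, numbered 1 with the mean of probe sets and 0 to 2 with each array left out.

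Of the Hippo components, 5 were lower in the main setting. There was 1 with median centring, 2 with the mean of probe sets, 0 without the trend, 1 in the adjusted t-test, 8 in the unadjusted t-test, and 1 to 4 with each array left out. The unadjusted t-test had 1 higher. Over all probe sets, 802 were higher and 785 lower. The higher and lower numbers were 131 and 259 with median centring, 462 and 417 with the mean of probe sets, 47 and 61 without the trend, 45 and 39 in the adjusted t-test and 2326 and 2043 in the unadjusted t-test. Without probe sets that may bind several transcripts, 521 were lower. With each array left out, 249 to 1074 were higher and 185 to 1202 lower, both lowest without wild type replicate 2. Apart from fewer arrays or probe sets tested, the cause was not tested.

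Directions of values near 0 turned for Wwtr1 with median centring (-0.0620), for Yap1 with the mean of its probe sets (0.0545) and without wild type replicate 2 (0.0103), wild type replicate 3 (0.0252) or KO replicate 3 (0.0235), for Ccn2 without wild type replicate 3 (0.0464), for Tead1 without KO replicate 3 (0.00253) and for Kdr without KO replicate 1 (-0.0520). With each array left out, these genes ranged from -0.0868 to 0.0252 (Yap1), -0.106 to 0.0464 (Ccn2), -0.231 to 0.00253 (Tead1) and -0.0520 to 0.547 (Kdr). None of these passed in either setting. Same-numbered arrays correlated in their deviations from the group means at 0.03, 0.01 and -0.05, against -0.06 to 0.04 among the other pairs. No pairing by number was detected, and with 3 arrays per group a weak pairing could be missed. With a replicate block, 415 probe sets were higher and 422 lower, 3 Hippo components were lower, and Ccn3 and Ccn5 still passed (adjusted p = 0.00595 and 0.0150). Signals near the floor, such as that of Krt19 in KO cells, limit the precision of a fold change.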
